A study of Mus musculus with 2 samples.

Results

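The genes described here encode the cytoplasmic translation factors of the mouse, the proteins that start, elongate and end protein synthesis on the ribosome. They were taken from the deposited tables as protein-coding rows whose symbol begins with Eif and a digit from 1 to 6 or with Eef1 or Eef2, together with Etf1, Gspt1 and Gspt2. The Eif2c genes, which are Argonaute genes under an older name, and the genes of the gamma subunit of eIF2 were left out. This gave 63 genes in 65 rows, out of 22240 protein-coding gene symbols in 22382 rows. Eif4e3 and Eef2k had 2 overlapping rows each, which were summed.

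The samples are 2 libraries of mouse heart at embryonic day 12.5, replicate 1 and replicate 2, from animals of mixed C57BL/6 and 129S6 background with no treatment given. RNA was taken from heart tissue, so the values average over all cell types, and fewer cells of a type and less RNA per cell cannot be told apart. Both libraries belong to a single group, so genes are compared with each other within a library, and no p-value is given, since an exact sign-flip test over 2 libraries cannot go below 0.5 (two-sided). Levels are in FPKM, sequenced fragments per kilobase of transcript scaled for library size. They are given per library or as the mean ± SD of replicates 1 and 2 (n = 2). It is not stated whether separate embryos or litters were used, and what separates the replicates may be technical.

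Translation starts when the small ribosomal subunit, loaded with eIF3, eIF1, eIF1A, eIF5 and the eIF2-bound initiator tRNA, is brought to the capped end of an mRNA by eIF4F and scans to the start codon. eIF2 must be recharged with GTP by eIF2B after every start, and kinases that phosphorylate eIF2 slow this step under stress. eIF5B then joins the large subunit, eEF1A delivers each aminoacyl-tRNA, eEF2 moves the ribosome along, and eRF1 with eRF3 releases the finished chain. Heart muscle is known for a switch in eEF1A: the widely expressed form encoded by Eef1a1 gives way after birth to a form encoded by Eef1a2, which is otherwise found in skeletal muscle and neurons.

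The coding sequences of the eEF1A pair are alike but can be told apart by short reads, which matters for every value of the pair given here. The beginning of each coding sequence is shown as 120 bases from the start codon, with the bases that differ between the genes in capitals (GENCODE M21 transcripts, GRCm38, minus strand for both).
Eef1a1, chr9:78480535-78480654: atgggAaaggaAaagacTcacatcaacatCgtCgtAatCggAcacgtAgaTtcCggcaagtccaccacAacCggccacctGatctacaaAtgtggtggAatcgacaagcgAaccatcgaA
Eef1a2, chr2:181155287-181155406: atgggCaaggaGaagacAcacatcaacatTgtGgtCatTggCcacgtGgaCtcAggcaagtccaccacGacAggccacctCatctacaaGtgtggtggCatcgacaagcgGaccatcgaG
All 18 differences in this stretch fall on the last base of a codon. Over the whole coding sequence 276 bases differed, 224 of them on the last base of a codon, and 80.1% of the 1389 aligned bases were identical. The longest run of identical bases was 23, and the transcripts shared no stretch of 50 bases.

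The widely expressed form was far the more abundant. Eef1a1 (chr9:78326256-78336958 on the mm9 build of the files, minus strand) stood at 3224 FPKM in replicate 1 and 3147 FPKM in replicate 2. It was the ninth most abundant protein-coding gene by mean FPKM. Eef1a2 (chr2:180882358-180891719, minus strand) stood at 72.6 FPKM in replicate 1 and 70.1 FPKM in replicate 2. The libraries gave nearly the same values for each gene, and the ranges of the genes lay far apart.

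The ratio of Eef1a1 to Eef1a2 was 44.4 in replicate 1 and 44.9 in replicate 2, or 5.46 ± 0.01 on the log2 scale after 1 FPKM was added to every value. Of the protein-coding genes that averaged at least 1 FPKM, 95% had values in the replicates within 0.22 of each other on that scale, and the eEF1A ratio exceeded this limit. The muscle form was therefore the minor form, although it was not a rare transcript, since it ranked 761st among protein-coding genes. Eef1a1 shares sequence with a processed pseudogene, Gm13456, which matched 73.4% of its transcript at 98% identity or more and was listed at 14.6 FPKM in replicate 1 and 23.3 FPKM in replicate 2. No such copy was found for Eef1a2. How reads that match several places were handled is not given in the sources used here.

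Because Eef1a2 is also a neuronal and skeletal muscle gene, its level was set beside markers of those cells. The 5 neuronal markers summed to 8.34 FPKM in replicate 1 and 8.53 FPKM in replicate 2, with Tubb3 highest at 3.81 ± 0.65 FPKM and Snap25 at 0.28 ± 0.06 FPKM. Of the skeletal muscle markers, the regulators Myod1, Myog, Myf5 and Pax7 lay between 0.00579 and 0.466 FPKM, and Ckm, which heart also uses, was at 13.1 ± 3.2 FPKM. All of these lay below Eef1a2 in each library, though 3 of the 5 neuronal markers reached 1 FPKM in both. Levels of different genes do not show which cells a transcript came from, and the source of Eef1a2 was not tested. The 5 cardiomyocyte markers, which check the labelled tissue, were led by the cardiac actin gene Actc1 at 4314 ± 98 FPKM and were all above 50 FPKM.

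As a whole the factor genes were expressed at high levels. At 1 FPKM or more in both libraries there were 61 of the 63 genes, 96.8%, against 52.4% of all protein-coding genes. At 10 FPKM or more there were 52, 82.5%, against 27.1%, and at 100 FPKM or more 13, 20.6%, against 2.11%. The median factor stood at 51.2 FPKM, the median protein-coding gene at 1.67 FPKM and the median of the 11651 protein-coding genes that reached 1 FPKM in both libraries at 10.9 FPKM. These shares describe the libraries, and no test was made of the difference.

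**Figure D1:**
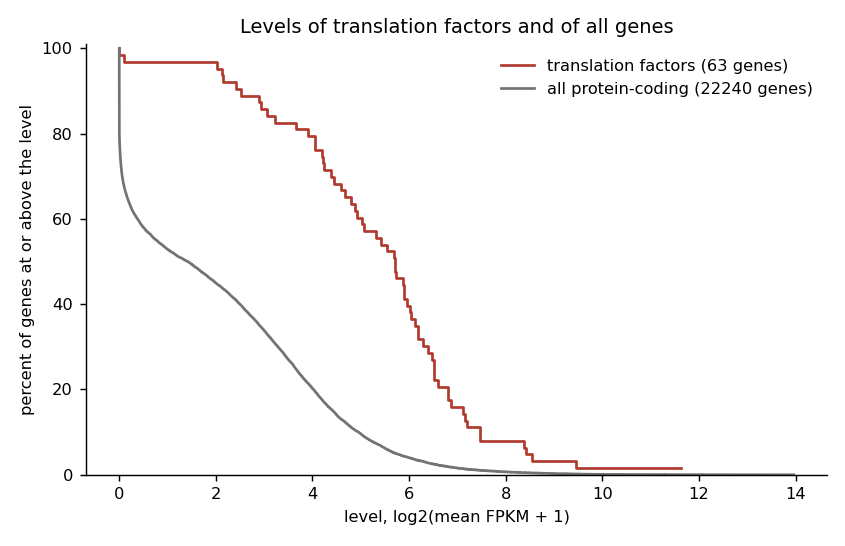
Percent of genes (y axis) whose level, log2(mean FPKM + 1) over the 2 libraries (x axis), is at or above the given value, for the 63 translation factors (red) and all 22240 protein-coding genes (grey). The red line lies above the grey one over nearly the whole range: 82.5% of the factors but 27.1% of all genes reached 10 FPKM in both libraries.

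Of the FPKM summed over all rows, the 63 genes made up 2.08% in replicate 1 and 2.06% in replicate 2. Eef1a1 alone made up 40.0% of the factors' own sum in each library, which amounts to 0.67 ± 0.0004 times the sum of the other 62 genes. The elongation group, 8 genes, held 58.0% of that sum in replicate 1 and 58.1% in replicate 2. The eIF4F group followed with 14.0% and 14.1%, and the eIF3 group with 12.0% and 11.8%. Elongation genes thus led the set, and most of their share came from a single gene.

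**Figure D2:**
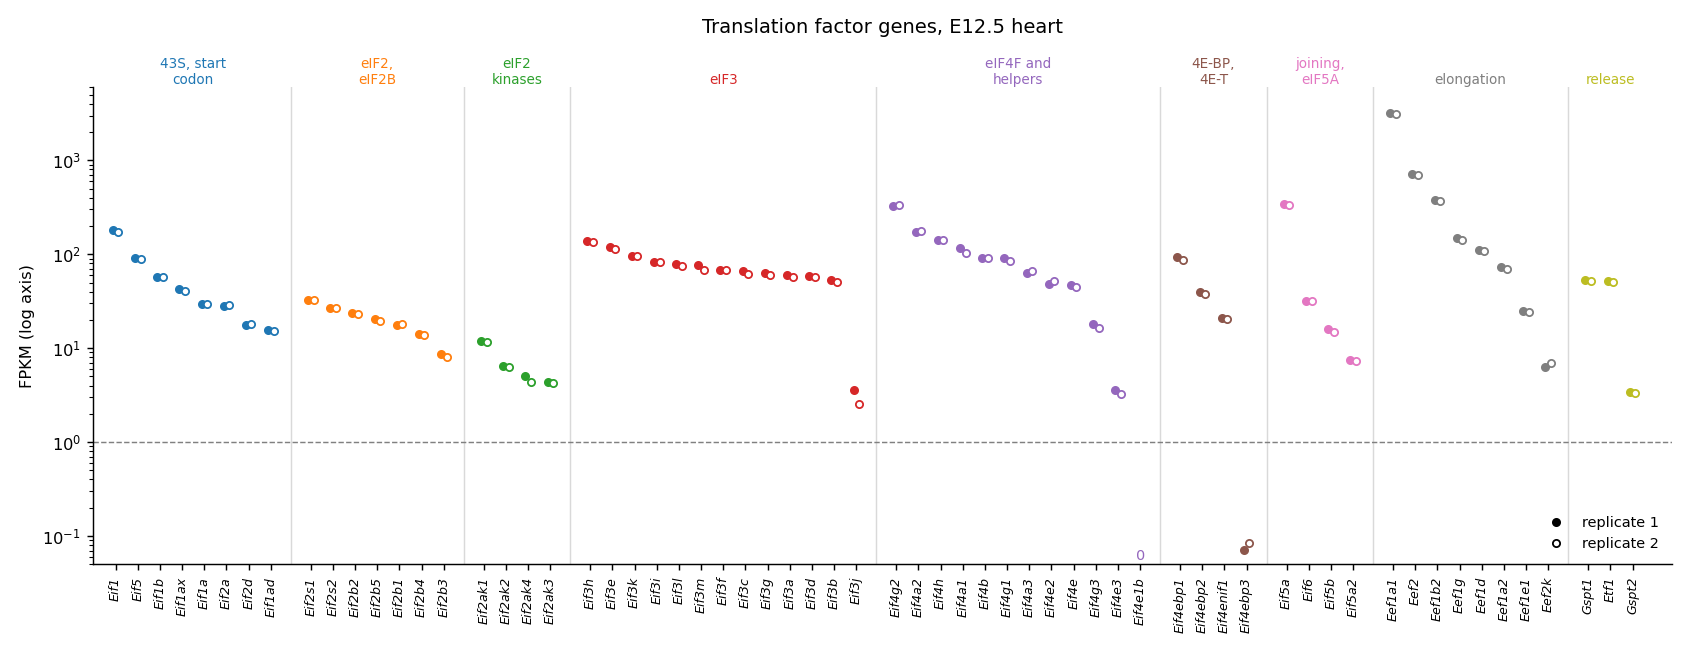
FPKM on a log axis for each of the 63 genes, grouped by role and ordered within a role by mean, with replicate 1 as filled and replicate 2 as open circles. The dashed line marks 1 FPKM, and a printed 0 marks Eif4e1b, listed at 0 in both libraries. Eef1a1 stands apart at the top, and Eif3j, Gspt2 and Eif4ebp3 lie well below the other genes of their groups. Eif4e3 lies well below all of its group but Eif4e1b.

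Among the factors of the scanning complex, Eif1, whose product guards against starting at the wrong codon, was highest at 182 FPKM in replicate 1 and 172 FPKM in replicate 2. Its close relative Eif1b stood at 57.1 and 57.9 FPKM, so Eif1 exceeded it 3.18-fold in replicate 1 and 2.97-fold in replicate 2. The copy Gm10157 matched all of the coding sequence of Eif1, so the value of Eif1 is uncertain. That copy was listed at 2.22 FPKM in replicate 1 and 1.55 FPKM in replicate 2. Eif5, the GTPase activator of eIF2, was at 90.2 ± 2.3 FPKM.

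eIF1A is encoded by a pair of genes in the mouse. Eif1ax, on the X chromosome, was at 42.5 FPKM in replicate 1 and 41.1 FPKM in replicate 2. The autosomal Eif1a was at 29.4 and 29.6 FPKM. The difference was small, 0.49 ± 0.04 on the log2 scale, but had the same direction in both libraries and exceeded the limit of 0.22. Eif2a and Eif2d, which can bring initiator tRNA to the ribosome by other routes, were at 28.4 ± 0.7 and 17.8 ± 0.4 FPKM, and Eif1ad, an eIF1A-like gene, was the lowest of the group at 15.6 ± 0.3 FPKM.

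Eif2s1, the alpha subunit that the stress kinases phosphorylate, was at 32.7 FPKM in replicate 1 and 32.3 FPKM in replicate 2. Eif2s2, the beta subunit, was at 27.1 and 26.9 FPKM. Eif2s1 was the higher in both libraries, by 0.26 ± 0.01 on the log2(FPKM + 1) scale (SD, n = 2), just past the limit of 0.22. The value of Eif2s2 is uncertain, because its copy Gm9892, which matches 99.6% of its coding sequence, was listed at 3.70 FPKM in replicate 1 and 4.82 FPKM in replicate 2. The exchange factor eIF2B lay lower, with a median of 17.7 FPKM over its 5 subunits. Eif2b2 was the highest at 23.6 and 22.9 FPKM, Eif2b5, the catalytic subunit, stood at 20.2 and 19.3 FPKM, and Eif2b3 was the lowest at 8.69 and 7.99 FPKM. The highest subunit exceeded the lowest by 1.38 ± 0.05 on the log2 scale. These 2 subunits were picked as the extremes from the same values, so a range past the limit of 0.22 was likely beforehand and is given as a description only.

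The 4 eIF2 kinases were all detected at low levels. Eif2ak1, the heme-regulated kinase best known from red cell precursors, was the highest at 11.8 FPKM in replicate 1 and 11.5 FPKM in replicate 2. Red cell transcripts were abundant in both libraries, with the embryonic globin gene Hbb-y at 15962 ± 813 FPKM and the red cell heme synthesis gene Alas2 at 56.5 ± 0.4 FPKM, and their part in the level of Eif2ak1 was not tested. Eif2ak2, the kinase activated by double-stranded RNA, was at 6.47 and 6.33 FPKM, below Eif2ak1 in each library. Eif2ak4, the sensor of amino acid shortage, was at 5.11 and 4.41 FPKM, and Eif2ak3, the kinase of the endoplasmic reticulum, at 4.34 and 4.30 FPKM. The last 2 differed by 0.11 ± 0.12 on the log2 scale, less than the limit, and their order cannot be given.

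eIF3 is the largest initiation factor and bridges the small ribosomal subunit and eIF4F. Of its 13 subunit genes, 12 lay in a narrow band between 51.6 and 137 FPKM, with a median of 70.1 FPKM. Eif3h was the highest at 139 FPKM in replicate 1 and 136 FPKM in replicate 2, and Eif3e followed at 120 and 113 FPKM. The core subunits that hold the complex together were near the lower end: Eif3a was at 58.3 ± 1.6 FPKM, Eif3c at 64.0 ± 2.9 FPKM and Eif3b at 51.6 ± 1.7 FPKM. Eif3h exceeded Eif3b by 1.39 ± 0.02 on the log2 scale. They were picked as the extremes of these 12 genes, after the other subunit gene was set apart with its value seen. This range is therefore a description only.

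The remaining subunit gene, Eif3j, was listed at 3.58 FPKM in replicate 1 and 2.53 FPKM in replicate 2. Its product is a loosely bound subunit. Eif3h exceeded it by 5.10 ± 0.24 on the log2 scale, again a range between extremes picked from the same values. All of the coding sequence of Eif3j is matched at 98% identity or more by a protein-coding gene that the reference names Eif3j2 and the files name Gm9781, and this row was listed at 7.29 FPKM in replicate 1 and 7.41 FPKM in replicate 2. With the rows added together Eif3j came to 10.9 and 9.93 FPKM, and Eif3h exceeded the sum by 3.60 ± 0.06. Eif3j was thus the lowest of the group by either reckoning, and its own value is uncertain. Eif3m, at 76.2 FPKM in replicate 1 and 67.6 FPKM in replicate 2, also has a copy, Gm7658, over 87.7% of its transcript.

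In eIF4F, Eif4e binds the cap, Eif4g1 is the scaffold and Eif4a1 or Eif4a2 is the helicase. The helicase Eif4a2 (173 FPKM in replicate 1 and 178 FPKM in replicate 2) was higher than Eif4a1 (117 and 104 FPKM). Eif4a1 was lower than Eif4a2 by 0.57 log2 units in replicate 1 and 0.77 in replicate 2. The pseudogene Eif4a-ps4 matched 68.7% of the transcript of Eif4a1 and 99.8% of its coding sequence. It was listed at 9.15 FPKM in replicate 1 and 15.1 FPKM in replicate 2. How reads that match both were handled is not given, so the value of Eif4a1 and its order with Eif4a2 are uncertain. The search for copies of Eif4a2 covered its coding sequence only. Eif4a3, the related helicase of the exon junction complex, was at 63.5 and 65.9 FPKM.

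The scaffold genes spanned a wide range. Eif4g2, which encodes a shortened eIF4G that lacks the site for eIF4E and serves cap-independent initiation, was at 330 FPKM in replicate 1 and 333 FPKM in replicate 2. Eif4g1 was at 91.2 and 84.7 FPKM and Eif4g3 at 18.1 and 16.5 FPKM. Eif4g2 thus exceeded Eif4g1 by 1.90 ± 0.08 on the log2 scale, and Eif4g1 exceeded Eif4g3 by 2.28 ± 0.02. The order was the same in both libraries.

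The cap-binding gene Eif4e was at 47.3 FPKM in replicate 1 and 44.4 FPKM in replicate 2. Its relative Eif4e2, which binds caps without eIF4G and is known as a repressor, was at 48.7 and 51.7 FPKM. Their log2 ratio, -0.13 ± 0.12, was within the limit of 0.22, and their order cannot be given. A copy of Eif4e, Gm7327, matches all of its coding sequence. That copy was listed at 3.18 FPKM in replicate 1 and 4.77 FPKM in replicate 2, so the value of Eif4e is uncertain. Eif4e3 was lower than Eif4e and Eif4e2, at 3.62 and 3.22 FPKM. The longer of its rows in the files overlaps Foxp1 (22.3 FPKM) on the same strand, and nearly all of its value came from the shorter row, at 3.39 and 3.01 FPKM. Eif4e1b, a form known from oocytes, was listed at 0 in both libraries, which does not show that it was absent. The helicase partner Eif4h, at 142 and 141 FPKM, exceeded Eif4b, at 91.3 and 91.0 FPKM.

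The repressors of eIF4E, the 4E-BPs, bind it when mTORC1 is inactive. Eif4ebp1 led at 94.1 FPKM in replicate 1 and 87.2 FPKM in replicate 2, and Eif4ebp2 stood at 40.1 and 37.5 FPKM. Eif4ebp2 was lower than Eif4ebp1 by 1.21 log2 units in replicate 1 and 1.20 in replicate 2. Eif4ebp3 was under the detection limit at 0.071 and 0.085 FPKM, and in the files it lies inside the span of Ankhd1 (10.9 FPKM) on the same strand. Summed, the 3 genes had 2.84 times the FPKM of Eif4e in replicate 1 and 2.81 times in replicate 2. The copy of Eif4e was not counted in these ratios. Eif4enif1, which carries eIF4E into the nucleus, was at 20.8 ± 0.3 FPKM. Its whole span overlaps Drg1 (47.0 FPKM) on the opposite strand, and whether reads were assigned by strand is not given.

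Of the late initiation factors, Eif6, which keeps the large subunit from joining too early, was at 31.6 FPKM in replicate 1 and 31.8 FPKM in replicate 2, and Eif5b, the joining GTPase, at 16.0 and 15.0 FPKM. eIF5A, which carries the amino acid hypusine and helps ribosomes through stretches such as runs of proline, has a pair of genes. Eif5a was at 346 and 334 FPKM and Eif5a2 at 7.45 and 7.31 FPKM, ratios of 46.5 in replicate 1 and 45.6 in replicate 2. This was close in size to the ratio of the eEF1A pair. The beginnings of the coding sequences, 90 bases from the start codon with differing bases in capitals, show how far this pair has parted (GRCm38, minus strand for Eif5a and plus strand for Eif5a2).
Eif5a, chr11:69919226-69919315: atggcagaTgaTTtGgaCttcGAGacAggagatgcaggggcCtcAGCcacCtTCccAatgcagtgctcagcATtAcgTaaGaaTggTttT
Eif5a2, chr3:28782052-28782141: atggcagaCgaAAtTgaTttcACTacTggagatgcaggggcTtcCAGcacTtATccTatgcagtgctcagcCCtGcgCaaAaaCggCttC
In this stretch 25 bases differed, 18 of them on the last base of a codon, and over the whole coding sequence 73.2% of 462 aligned bases were identical. The longest identical run was 14 bases.

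Beside eEF1A, the elongation genes formed a steep series. Eef2, the translocase, was second of all factors at 709 FPKM in replicate 1 and 703 FPKM in replicate 2, so that Eef1a1 exceeded it 4.51 ± 0.05-fold. The exchange complex that reloads eEF1A with GTP was led by Eef1b2 at 377 and 370 FPKM, with Eef1g at 149 and 142 FPKM and Eef1d at 112 and 109 FPKM. Eef1b2 and Eef1g have sequence copies over 14.3% and 72.0% of their transcripts, and over 41.0% and 100% of their coding sequences. No row was found for either copy, so the values of both genes are uncertain. Eef1e1, whose product sits in the multisynthetase complex, was at 24.6 ± 0.4 FPKM. Eef2k, the kinase that inhibits eEF2, was the lowest at 6.29 and 7.03 FPKM, nearly all of it in a single one of its rows.

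The release factor genes Etf1, encoding eRF1, and Gspt1, encoding eRF3a, were level. Etf1 stood at 52.0 FPKM in replicate 1 and 50.3 FPKM in replicate 2, and Gspt1 at 53.1 and 51.6 FPKM, a ratio of 1.02 in each library. Gspt2, a related eRF3 gene on the X chromosome, was at 3.45 and 3.32 FPKM. Gspt1 exceeded Gspt2 by 3.60 ± 0.003 on the log2 scale.

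Across 16 pairs of related factors, 14 had a ratio beyond the limit of 0.22 with the same sign in both libraries. The exceptions were Eif4e with Eif4e2 and Eif2ak4 with Eif2ak3. The limit reflects only how far the replicates part, and says nothing of errors common to them, for instance where reads went to a copy. It is narrow beside the differences between genes. Protein-coding genes at 1 FPKM or more in both libraries had quartiles of 4.88 and 23.1 FPKM. Pairs of any genes would often pass it, and the share over unrelated pairs was not computed. No pair shared a stretch of 50 bases between the transcripts compared.

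**Figure D3:**
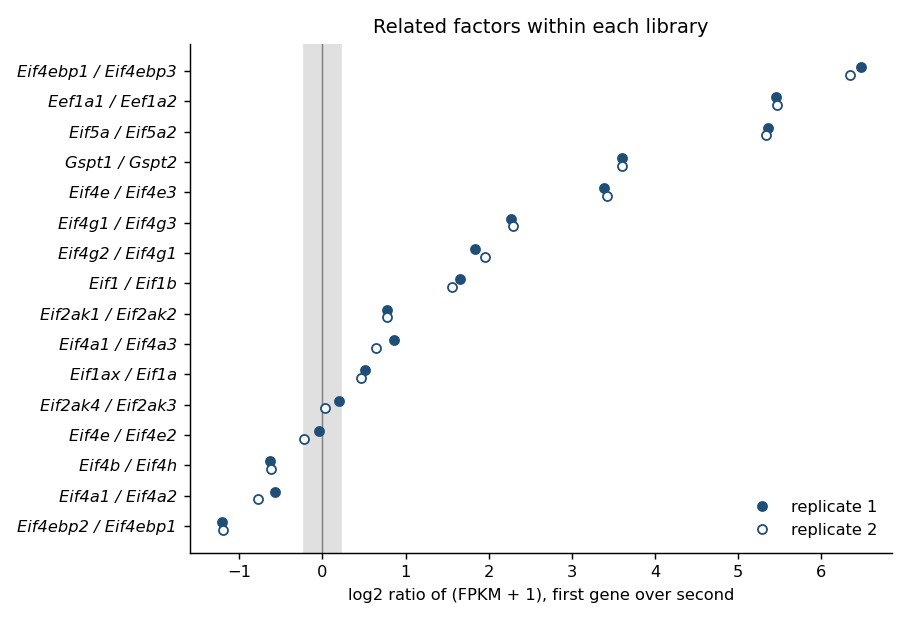
Log2 ratio of (FPKM + 1) of the first gene over the second (x axis) for 16 pairs of related factors, with replicate 1 as filled and replicate 2 as open circles. The grey band spans ±0.22, within which 95% of genes matched between replicates. Eef1a1 over Eef1a2 lies at 5.46, and 14 pairs have means outside the band.

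The ranking of the factors was nearly the same in both libraries. The leading 5 were Eef1a1, Eef2, Eef1b2, Eif5a and Eif4g2 in each, with Eif5a and Eif4g2 all but level in replicate 2, at 334 and 333 FPKM. Eif1 and Eif4a2, the next 2, changed places between the libraries, and their order cannot be given.

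None of the 56 factors that averaged at least 5 FPKM was higher in either library by 25% or more after 1 FPKM was added, beside a background of 0.958% of 8663 protein-coding genes. Of that background, 0.473% were higher in replicate 2, and the other 0.485% were lower there. The median absolute difference was 0.04 log2 units for the factors and 0.06 for all these genes. The largest difference among the 56 was that of Eif3m, 0.17 log2 units lower in replicate 2. Below 5 FPKM, Eif3j was lower by 0.38 log2 units in replicate 2. In the other direction Eef2k was higher by 0.14 log2 units in replicate 2.

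**Figure D4:**
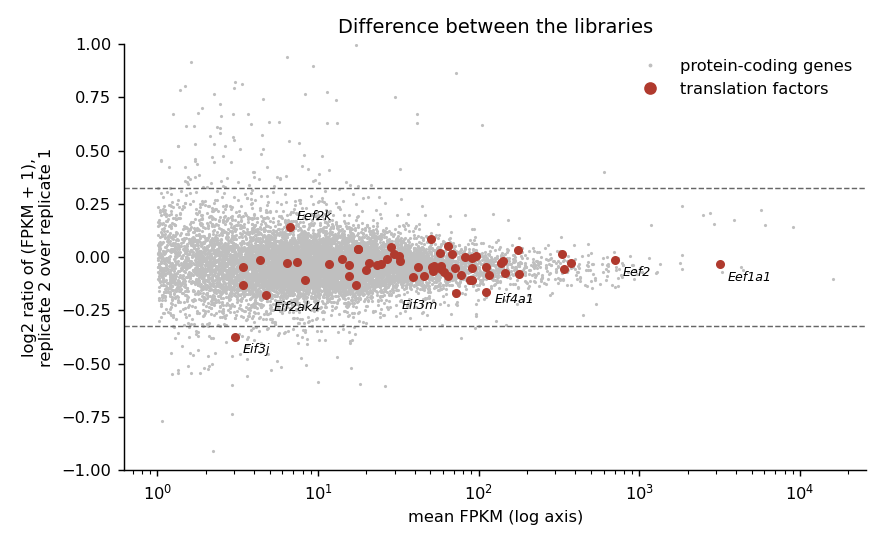
Log2 ratio of (FPKM + 1), replicate 2 over replicate 1 (y axis), against mean FPKM on a log axis for protein-coding genes averaging at least 1 FPKM (grey; 13 of 11757 lie beyond the axis) and the translation factors among them (red). Dashed lines mark a level 25% higher in either library. Every factor but Eif3j, at -0.38, lies between the lines.

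The factor genes are spread over the genome, with no more than 6 on any chromosome. Of the 63, 9 hold the row of a snoRNA, a small RNA that guides the modification of ribosomal RNA, within their span and on the same strand (14.3%, against 1.22% of all protein-coding genes and 1.99% of those at 1 FPKM or more in both libraries). They are Eef1b2, Eef2, Eif2ak3, Eif3a, Eif4a1, Eif4a2, Eif4g1, Eif4g2 and Eif5. Longest coding transcripts in the reference ran to 2515 bases at the median. Those of Eif4a2 and Eif4g3 hold the coding sequence only, so their length, GC content and search for copies leave out the untranslated ends. Level and transcript length had a Spearman correlation of -0.27 and level and GC content one of 0.13 across the 63 genes, which share their libraries and are not independent. Eef1a2 had the highest GC content of all, 60.6%, and Eef1a1 had 47.4%.

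A wider list of 52 other genes of translation and its control was detected throughout. All 52 reached 1 FPKM in both libraries, against 52.4% of all protein-coding genes, with a median of 16.0 FPKM. The list was chosen by hand with earlier results of these data known, so its share does not describe translation genes at large. The poly(A)-binding protein gene Pabpc1, whose product joins eIF4G to the tail of the mRNA, was the highest at 318 FPKM in replicate 1 and 308 FPKM in replicate 2, near Eif5a and Eif4g2. The helicase gene Ddx3x was at 110 ± 5 FPKM and Dhx9 was at 47.9 ± 4.6 FPKM. Paip2, which displaces the poly(A)-binding protein, was at 81.7 ± 1.7 FPKM.

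Factors of mitochondrial translation, counted apart from the cytoplasmic ones, ranged from 3.40 to 43.1 FPKM. Gfm1, the mitochondrial counterpart of eEF2, was at 43.1 ± 1.5 FPKM, and Tsfm, the exchange factor of the mitochondrial elongation factor Tu, at 26.9 ± 0.4 FPKM. Among the regulators, Mknk2, a kinase of eIF4E, was at 45.8 ± 0.5 FPKM, Akt1s1, an inhibitor in mTORC1, at 34.1 ± 0.9 FPKM and Mtor itself at 6.09 ± 0.60 FPKM. Atf4, the transcription factor whose mRNA is translated when eIF2 is phosphorylated, was at 58.9 ± 1.4 FPKM, and Ppp1r15b, a subunit of the phosphatase that resets eIF2, at 20.7 ± 0.2 FPKM. For hypusine synthesis Dohh was at 24.5 ± 0.3 FPKM, and for diphthamide, the modified residue of eEF2, Dph3 was at 20.2 ± 0.8 FPKM.

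Recycling and special decoding genes lay in the same range. Abce1, which splits the ribosome after termination, was at 42.8 ± 1.9 FPKM, and Denr, a recycling factor, at 32.0 ± 0.6 FPKM. In selenocysteine decoding Sephs2 was at 27.2 ± 0.4 FPKM and Secisbp2 at 5.83 ± 0.15 FPKM. Larp1, a repressor of mRNAs that encode the translation machinery, was at 26.3 ± 1.3 FPKM, and Pdcd4, an inhibitor of eIF4A, at 18.8 ± 0.9 FPKM.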

How the data were processed

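RNA of 2 libraries of mouse heart at embryonic day 12.5 was extracted with Trizol and prepared with a TruSeq RNA v2 kit, per the labels' protocols. The authors deposited 1 table per library with an FPKM value for each of 37620 gene rows. GSNAP, Cufflinks and Cuffnorm and the builds mm9 and hg19 are named without versions in the submitters' processing notes. Which annotation and strand option were used, and how reads matching several places were treated, is not given in the sources used here. Of the 63 factor genes, 17 overlap a row other than a small RNA on the opposite strand. Their values may include reads of the other gene if strand was not used, which was not tested. Positions in the files fit mm9: on chromosome 1 they reach 197054592, past the end of the GRCm38 annotation at 195323493.

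Protein-coding rows that share a symbol were summed. The summed FPKM of all rows was 388230 in replicate 1 and 382561 in replicate 2. The depth is unknown in absolute terms. Among 2881 rows above 0 and under 0.1 FPKM in both libraries, the most common ratio of replicate 2 to replicate 1 was 1.33, held within 0.05 on the log2 scale by 484 rows. Replicate 1 would be the deeper library by that ratio if these values stand for equal numbers of fragments, which was not checked against read counts. Counting error has no interval here. Detection was set at 1 FPKM in both libraries. Ratios used log2(FPKM + 1), which understates those of low genes. The limit for ratios was percentile 95 of the absolute log2 difference between replicates over protein-coding genes averaging at least 1 FPKM. A gene was counted as different between replicates where 1 value exceeded the other by 25% or more and the mean was at least 5 FPKM.

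Coding sequences, lengths and copies came from GENCODE M21 transcripts (the transcript with the longest coding sequence per gene), matched for all 63 genes by gene ID. BLAST 2.17.0 was used to find copies, which are genes elsewhere that match over 75 bases or more with an identity of at least 98%. All members could be named. Of the wider list, the 2 highest genes of each group and any under 1 FPKM could be named. Mtor, the copies and overlapping genes and the ratios between different factors were chosen after their values were seen. The members, lists and pairs were chosen with earlier results of these data known. Alternatives changed the pseudocount, the detection limit, the scaling, the filter, the handling of shared symbols and the libraries used. The count of genes different between replicates was tested on simulated data, and the log2 ratio on a made-up pair. The other steps, such as the search for copies, were not tested in this way. Python 3.11.15, NumPy 2.4.6, pandas 2.3.3 and Matplotlib 3.10.9 were used.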

Additional observations from a re-analysis of the deposited data

How the results depend on the processing

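All 16 pair ratios, that of Eef1a1 and Eef1a2 included, kept their direction and their side of the limit in each library alone and under another pseudocount, both rescalings and use of the highest row per symbol; the pairs other than Eef1a1 and Eef1a2 also did so with no filter on low values. The counts of detected factors and of the wider list stayed within 1.5 times the reported ones under detection limits of 0.5 and 5 FPKM. Rescaling to TPM, an equal sum per library, put the median factor at 132.7 TPM, since the deposited sums are lower. The factors held 2.13% of the sum over protein-coding rows only. The range among eIF3 subunits was 5.46 with a pseudocount of 0.1 FPKM, and 2 alternatives chosen after seeing the data gave 3.60 with the copy row added to Eif3j and 1.39 with Eif3j left out. The range among eIF2B subunits was 1.47 with a pseudocount of 0.1 FPKM and 1.44 on the TPM scale. On that scale, where the pseudocount and the filter take in lower genes, 1 factor differed by 25% or more between the libraries, as did 1 with no filter. No paired analysis was possible because the libraries form a single group. Depth is unknown, so the least abundant genes, Eif4ebp3 and Eif4e1b, have no limit for counting error.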

Other observations

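The rows that carry a factor's name as a pseudogene were higher in replicate 2 than in replicate 1. Eif4a-ps4 was listed at 9.15 FPKM in replicate 1 and 15.1 FPKM in replicate 2, Eif5al3-ps at 5.07 and 8.38 FPKM, Eif3s6-ps2 at 3.75 and 9.42 FPKM and Eif3s6-ps1 at 0.55 and 1.59 FPKM. The ratio of replicate 2 to replicate 1 was between 1.65 and 2.89. The pseudogene Gm13456, the copy of Eef1a1, behaved likewise, at 14.6 and 23.3 FPKM. Gm10157, a copy of Eif1, was lower in replicate 2, at 2.22 FPKM in replicate 1 and 1.55 FPKM in replicate 2. The factor genes themselves did not share this: 42 of the 56 that averaged at least 5 FPKM were lower in replicate 2. The same held over all genes, since 84.4% of 546 pseudogene rows averaging at least 1 FPKM were higher in replicate 2, with a median ratio of 1.53, against 30.7% of 11757 protein-coding genes, with a median ratio of 0.97.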
